A study of Solanum lycopersicum with 8 samples.

Results

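The WRKY transcription factors described here are the genes on the tomato array whose symbol, or a synonym listed for it, contains WRKY in any case. The rule chose genes by name, with earlier results of these data known. It found 7 probe sets for 6 genes, of 753 probe sets that carry a gene symbol for 688 genes. The other 7651 probe sets tested carry no symbol, and any WRKY genes among them were not analysed. Where a gene had more than 1 probe set, the one with the highest mean over the 8 arrays was taken. Leaves of Solanum lycopersicum cultivar Summer sweet, grown at 27 °C with a photoperiod of 12 h, were sprayed to run-off, either with water or with NPA, a neutralized phosphorous acid. The acid was used at 1 g per litre and brought to pH 6.3 with potassium hydroxide. The 4 groups were water and NPA plants harvested 6 h after spraying and water and NPA plants harvested 12 h after spraying. Each group had 2 arrays from separate repeats of the experiment, called repeat 1 and repeat 2, and each array held RNA pooled from 5 plants. The pools hide the spread between plants, and time after spraying and hour of day ran together. All values are log2 expression values as deposited, so a difference of 1 is a 2-fold difference.

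WRKY factors are plant transcription factors named after a short peptide in their DNA-binding domain, which is followed by a zinc finger. They bind the W-box in promoters of defence genes, including promoters of WRKY genes themselves, and act downstream of pathogen recognition, MAP kinases, calcium signals, salicylic acid and jasmonate. The family is divided into groups by its zinc finger and by the number of its WRKY domains. Members of group IId carry a calmodulin-binding motif, and in Arabidopsis some of them, WRKY11 and WRKY17, restrain basal resistance to bacteria. Group IIe includes Arabidopsis WRKY22 and WRKY29, which act after a MAP kinase cascade set off by bacterial flagellin. In leaves the family is also known for roles in senescence and wounding.

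By their names, 4 of the measured genes belong to group IId and 1 to group IIe. WRKYIId-4 (gene identifier 544202) has the synonyms SlWRKY26 and SlWRKY8, and under the latter name is known in tomato as a positive regulator of resistance to Pseudomonas syringae. LOC543855 is WRKYIId-2, WRKYIId (543858) is SlWRKY21, and WRKYIId-1 (100125891) had no other name. LOC543856 is WRKYIIe-1 or SlWRKY37, which is known in tomato as a promoter of leaf senescence induced by jasmonate and darkness. The names of WRKY2 (778199) do not give its group. Positions on chromosomes are left out, since the labels name no genome build.

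The 2 arrays of a group correlated between 0.968 and 0.987 over 8404 probe sets. The markers for leaf mesophyll measured here stood high at 6 h, with PSBO, CAB4, CAB5 and CAB6A between 13.67 and 14.17 on all 4 arrays. At 12 h CAB5, a chlorophyll a/b-binding protein, was between 8.05 and 9.55, while PSBO, of the oxygen-evolving complex, stayed between 13.86 and 13.93. Of markers of other cell types, 3 were measured: MTS1, a monoterpene synthase of glandular trichomes (3.30 to 6.03), PT1, a phosphate transporter of the root list (10.33 to 11.64), and TDR6, a floral MADS-box gene (6.16 to 9.11). No detection calls were used, so none of these could be called absent. In whole leaves, fewer cells of a type and less RNA per cell cannot be told apart.

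The first question was whether WRKY transcripts differed between NPA and water leaves 6 h after spraying. Every 1 of the 6 genes had a higher mean under NPA, by 0.22 to 0.65, where 48.2% of all probe sets were higher on average, and none passed the test. In limma, a linear model with a spread shared across probe sets, 0 of 6 had a Benjamini-Hochberg adjusted p under 0.05 over all 8404 probe sets. At an unadjusted p under 0.05 there were 3 of 6. Across the array 0.143% of probe sets passed as higher, 0.167% in either direction, and 15.7% had an unadjusted p under 0.05. With the repeat as a block in the fit 108 probe sets passed instead of 14, and still 0 of the 6 WRKY genes.

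WRKYIId-4 had the largest mean difference of the 6. It read 7.24 and 7.69 on the water arrays of repeats 1 and 2, and 8.26 and 7.97 on the NPA arrays. Both NPA arrays were above both water arrays, but the gap was 1.02 in repeat 1 and 0.28 in repeat 2. The mean difference was 0.65 (SE 0.19, n = 2 per group, 1.57-fold), with a 95% interval of 0.20 to 1.10 and an adjusted p of 0.185 in limma. Of all probe sets, 5.20% were at least as far above water.

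LOC543855, the WRKYIId-2 gene, read 5.52 and 5.83 in water and 6.34 and 6.08 under NPA. Its groups also did not overlap, with NPA higher by 0.82 in repeat 1 and by 0.25 in repeat 2. The difference was 0.535 (SE 0.17, 1.45-fold, 95% interval 0.13 to 0.94, limma adjusted p = 0.208).

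LOC543856, the group IIe gene, read 7.72 and 7.43 in water and 8.07 and 8.17 under NPA. Here the larger gap was in repeat 2, at 0.74 against 0.35 in repeat 1, and the groups were again apart. The difference of 0.545 (SE 0.13, 1.46-fold, 95% interval 0.23 to 0.86) had the smallest limma p of the family, at an adjusted p of 0.142. These 3 genes are the ones with an unadjusted p under 0.05. Among them LOC543855 (mean 5.83 over the 8 arrays) and LOC543856 (7.44) lay below the lower quartile of mean levels over all probe sets, 7.54.

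The other 3 genes were closer to water. WRKYIId read 8.34 and 8.37 in water and 8.53 and 8.76 under NPA, a difference of 0.29 (SE 0.14, limma adjusted p = 0.399), with no overlap. WRKY2 read 8.35 and 9.07 in water and 8.86 and 9.23 under NPA, so that its first NPA array lay below its second water array. Its difference was 0.335 (SE 0.25, adjusted p = 0.601). WRKYIId-1 read 9.67 and 10.00 in water and 10.27 and 9.84 under NPA, higher in repeat 1 by 0.60 and lower in repeat 2 by 0.16. Its mean difference of 0.22 (SE 0.27) was smaller than its error.

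As a family the 6 h difference was positive in 6 of 6 genes in repeat 1 and in 5 of 6 in repeat 2. Over all probe sets 47.8% were higher in repeat 1, 48.3% in repeat 2 and 33.4% in both. The groups did not overlap, with NPA higher, in 4 of 6 genes, against 21.9% of all probe sets. The family median was 0.435, from 0.555 in repeat 1 and 0.265 in repeat 2, and the median over all probe sets was -0.01 with quartiles of -0.19 and 0.165. MTS1, the trichome marker, was also higher under NPA, reading 3.92 and 3.97 in water and 4.88 and 6.03 under NPA (difference 1.51, limma adjusted p = 0.137). All its values were low, below the lower quartile of mean levels over all probe sets, 7.54. The MTS1 difference was 0.96 in repeat 1 and 2.06 in repeat 2. PT1 stood at 0.73 and TDR6 at -0.89 in the same comparison. The part of other cell types in the WRKY differences was not tested.

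**Figure D1:**
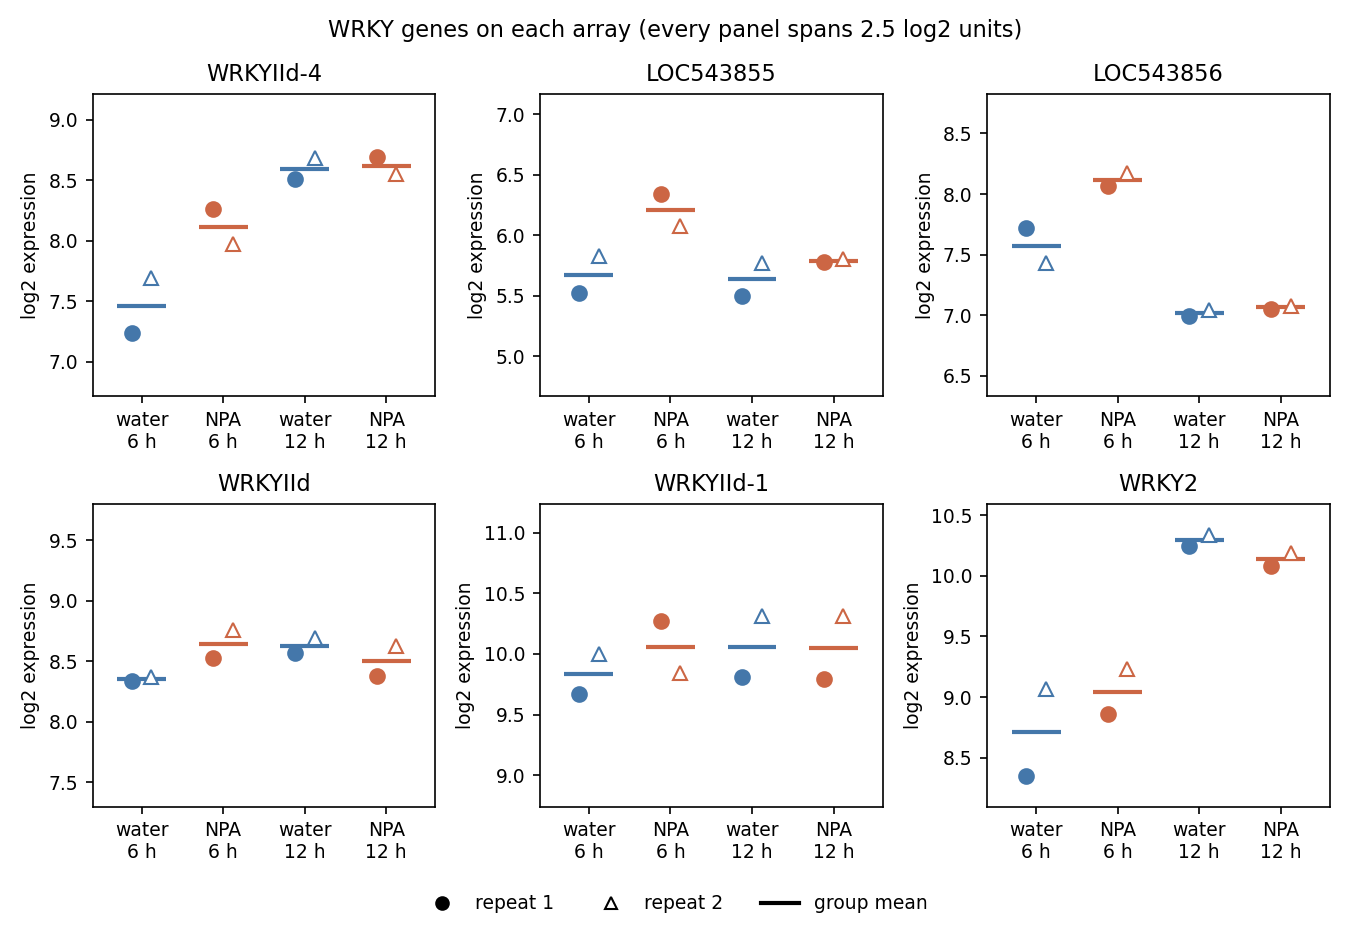
Log2 expression (vertical axis) of the 6 WRKY genes on each of the 8 arrays, in 4 groups along the horizontal axis; circles are repeat 1, triangles repeat 2, bars the group means, and every panel spans the same range. NPA arrays lie above the water arrays at 6 h in 4 panels (WRKYIId-4, LOC543855, LOC543856, WRKYIId), and the 12 h groups lie together in most, with WRKY2 high and LOC543856 low at 12 h.

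At 12 h the same comparison gave differences between -0.16 and 0.155. In limma 0 of 6 genes passed and 0 of 6 had an unadjusted p under 0.05, where 0.0119% of all probe sets passed and 9.65% had such a p. The family median was 0.01, beside -0.03 over all probe sets, and 3 of 6 genes were higher on average, beside 44.5%. The groups did not overlap in 3 of 6 genes. NPA was higher in 2 of these, LOC543855 and LOC543856, against 17.1% of all probe sets, and lower in 1, WRKY2, against 21.0%.

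LOC543856 read 6.99 and 7.04 in water and 7.05 and 7.08 under NPA at 12 h. All 4 values lay within a narrow band, with a difference of 0.05 and a 95% interval of -0.27 to 0.37. WRKYIId-4 read 8.51 and 8.68 in water and 8.69 and 8.55 under NPA. Its groups overlapped, at a difference of 0.025 (95% interval -0.43 to 0.48). LOC543855 read 5.50 and 5.77 in water and 5.78 and 5.80 under NPA, at a difference of 0.155 (95% interval -0.25 to 0.56).

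WRKY2 read 10.25 and 10.34 in water and 10.08 and 10.19 under NPA at 12 h, so both NPA arrays were lower. Its difference of -0.16 was smaller than the SE of 0.25. WRKYIId stood at -0.125 (SE 0.14), with 8.57 and 8.69 in water and 8.38 and 8.63 under NPA. WRKYIId-1 read 9.81 and 10.31 in water and 9.79 and 10.31 under NPA, so its arrays differed between repeats and hardly between treatments. Averaged over both times, the 6 genes stood between 0.0825 and 0.345 above water, and 0 of 6 passed in limma, with 3 of 6 at an unadjusted p under 0.05. In that comparison 42.8% of all probe sets were higher on average, 0.0714% passed and 11.8% had an unadjusted p under 0.05.

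**Figure D2:**
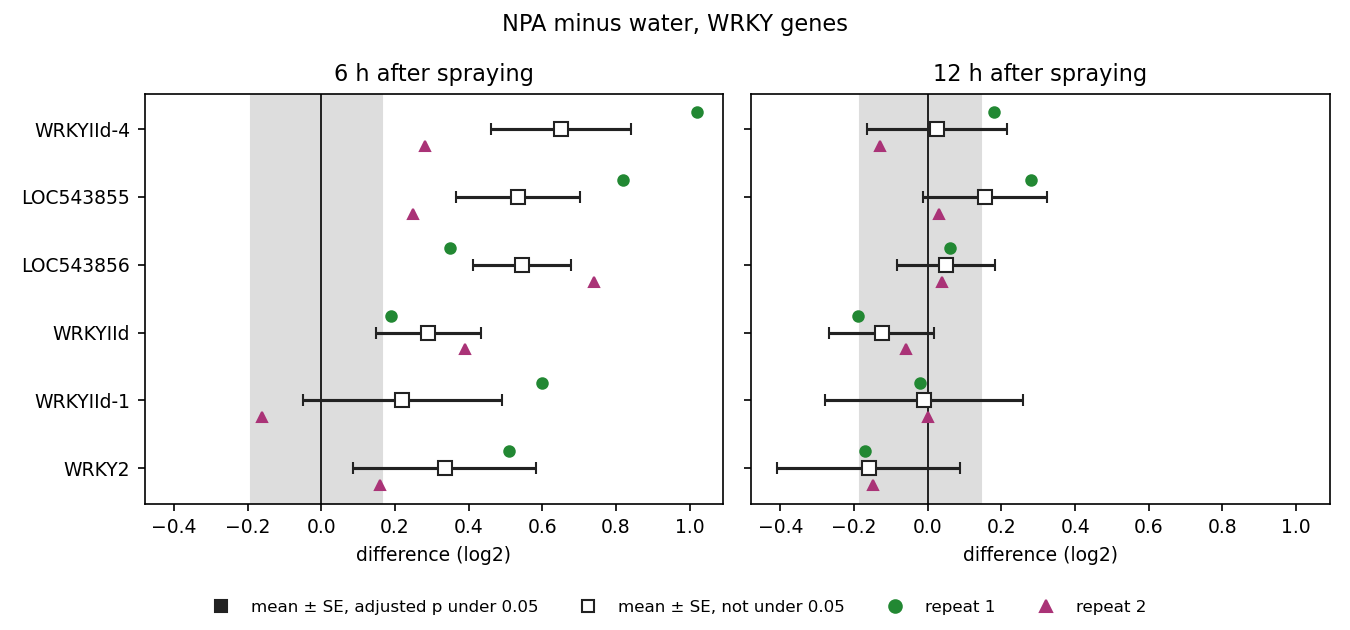
NPA minus water on the log2 scale (horizontal axis) for the 6 WRKY genes, at 6 h on the left and 12 h on the right; squares with bars are the mean and its limma SE, circles repeat 1, triangles repeat 2, and the grey band spans the quartiles of all 8404 probe sets. All squares are open, since no gene passed, and the 6 h means between 0.22 and 0.65 lie right of the band while the 12 h means lie in it or at its edge.

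The next question was whether the NPA difference changed between the harvests. It was lower at 12 h than at 6 h in all 6 genes on average, with changes from -0.625 to -0.23, and lower in both repeats in 5 of 6, WRKYIId-1 being the exception. The array as a whole had 54.4% of probe sets lower on average and 40.2% in both repeats. In the interaction term of limma 0 of 6 genes passed, 0.0% of all probe sets did, and 1 of 6, LOC543856, had an unadjusted p under 0.05, as did 13.4% of all probe sets. Its change was -0.495 (SE 0.19, adjusted p = 0.342, -0.29 in repeat 1 and -0.70 in repeat 2). For WRKYIId-4 the change was -0.625 (SE 0.27, adjusted p = 0.38). The family median was -0.455, beside -0.04 over all probe sets. WRKYIId and WRKY2 were above water in both repeats at 6 h and below it in both at 12 h, a pattern of 12.4% of all probe sets. WRKYIId was also higher at 12 h in both repeats of water and lower in both of NPA, as were 5.25% of all probe sets. The 6 h difference and this change share the 6 h arrays.

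The clearest differences in the family were between the harvests. In water plants WRKY2 and WRKYIId-4 rose from 6 h to 12 h and LOC543856 fell, so that 2 of 6 genes rose and 1 fell. Over all probe sets 11.7% rose and 10.5% fell in that comparison, which makes 22.2% in all. It shares its water arrays with the NPA differences at 6 h and 12 h, so these are not separate readings.

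WRKY2 went from 8.35 and 9.07 at 6 h to 10.25 and 10.34 at 12 h in water. The 12 h arrays were close together and far above both 6 h arrays. The rise was 1.585 (SE 0.25, n = 2 per group, 3.0-fold, limma adjusted p = 0.00891), by 1.90 in repeat 1 and 1.27 in repeat 2, and 1.19% of all probe sets were as far up. It stayed past the threshold without any 1 of the 8 arrays, with adjusted p from 0.0123 to 0.0494.

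WRKYIId-4 went from 7.24 and 7.69 to 8.51 and 8.68 in water. Its groups were apart, with a rise of 1.27 in repeat 1 and 0.99 in repeat 2. The mean rise was 1.13 (SE 0.19, 2.19-fold, limma adjusted p = 0.0107). Leaving out the water 6 h array of repeat 1 ended the call, at a rise of 0.905 (adjusted p = 0.0637), as did leaving out the water 12 h array of repeat 2 (1.045, 0.0602).

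LOC543856 went from 7.72 and 7.43 down to 6.99 and 7.04 in water. Both 12 h arrays lay below both 6 h arrays. The change was -0.56 (SE 0.13, 1.47-fold, limma adjusted p = 0.0294), and 13.3% of all probe sets were as far down. The call ended on leaving out the water 6 h array of repeat 1 (-0.415, adjusted p = 0.155) or either water 12 h array (0.109 for repeat 1 and 0.104 for repeat 2). With only the 4 water arrays in the fit the adjusted p was 0.0679.

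WRKYIId was higher at 12 h in water by 0.275 with no overlap, WRKYIId-1 by 0.225 with overlap, and LOC543855 stood at -0.04; none of these passed in limma (adjusted p from 0.21 to 0.886). The markers for leaf mesophyll changed in the same comparison, with 3 of 4 lower, CAB5 by -4.55, while PSBO stood at -0.02. MTS1 stood at -0.565 and TDR6 at 0.935, neither past the threshold. Their part in the WRKY changes was not tested.

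In NPA plants WRKY2 rose and LOC543856 fell from 6 h to 12 h, 1 of 6 each way. Across the array 14.2% of probe sets rose and 11.8% fell. This comparison likewise shares its NPA arrays with the NPA differences at 6 h and 12 h. WRKY2 went from 8.86 and 9.23 to 10.08 and 10.19, a rise of 1.09 (SE 0.25, 2.13-fold, limma adjusted p = 0.0231). Every 12 h array was above every 6 h array, but the call was lost without any 1 of the 4 NPA arrays, with values from 0.905 to 1.275 and adjusted p between 0.0514 and 0.113.

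LOC543856 went from 8.07 and 8.17 at 6 h to 7.05 and 7.08 at 12 h under NPA. The drop was nearly equal in the repeats, -1.02 and -1.09, and no array of one time came near the other. The change of -1.055 (SE 0.13, 2.08-fold, limma adjusted p = 0.00431) passed without any 1 of the 8 arrays, with adjusted p from 0.0083 to 0.0299. Of all probe sets 5.82% were as far down.

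WRKYIId-4 went from 8.26 and 7.97 to 8.69 and 8.55 under NPA and did not pass (0.505, SE 0.19, limma adjusted p = 0.0978). LOC543855 went from 6.34 and 6.08 to 5.78 and 5.80 and did not pass either (-0.42, SE 0.17, adjusted p = 0.116), although its groups did not overlap. WRKYIId stood at -0.14 and WRKYIId-1 at -0.005. In NPA plants MTS1 fell by 1.87 and TDR6 rose by 2.24 between the harvests, and 3 of 4 leaf mesophyll markers fell; their part in the WRKY changes was not tested.

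WRKY2 thus rose and LOC543856 fell in water and in NPA plants. These comparisons share no arrays, but they share 1 estimate of the spread and the same repeats. Of all probe sets 6.72% rose in both and 7.06% fell in both. The time changes of the same gene in water and NPA differ by the interaction given above, which no probe set passed. A call in 1 treatment alone, as for WRKYIId-4, therefore neither shows a difference between treatments nor its absence: the interval of its interaction ran from -1.27 to 0.02.

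**Figure D3:**
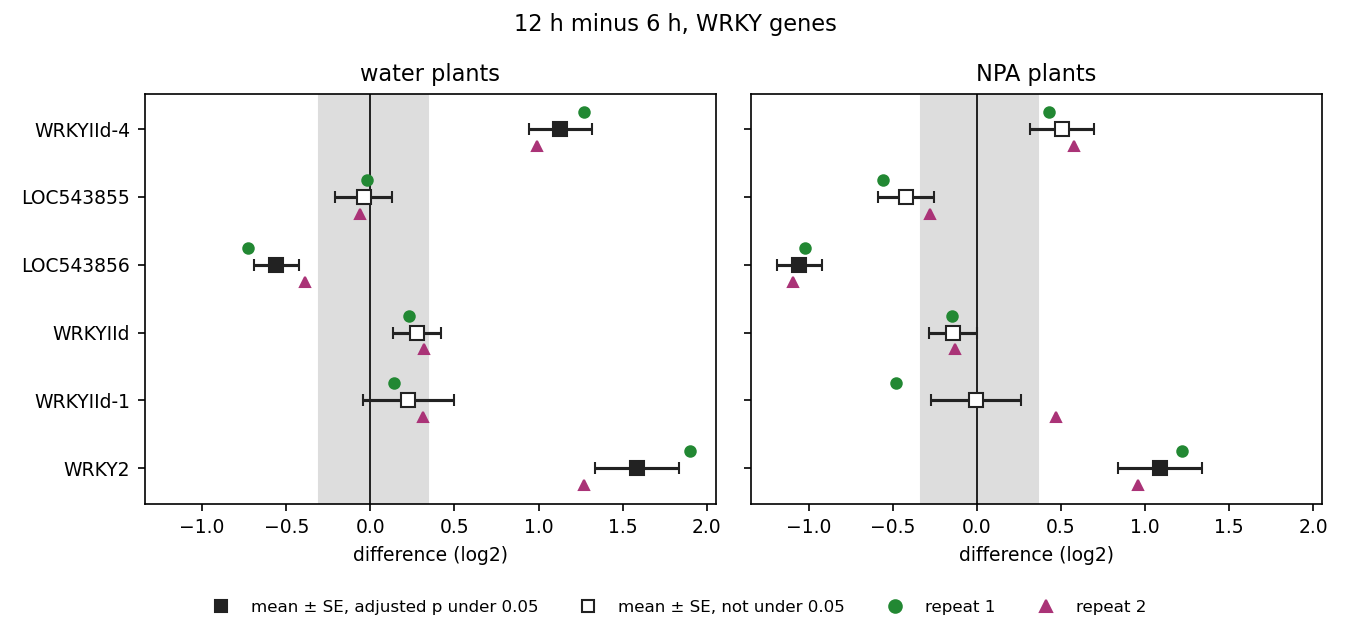
Change from 6 h to 12 h on the log2 scale (horizontal axis) for the 6 WRKY genes, in water plants on the left and NPA plants on the right; squares with bars are the mean and its limma SE, filled where the adjusted p was under 0.05, circles repeat 1, triangles repeat 2, and the grey band spans the quartiles of all 8404 probe sets. WRKY2 stands at 1.585 and 1.09 and LOC543856 at -0.56 and -1.055, and WRKYIId-4 is filled in water at 1.13 and open under NPA at 0.505.

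The second probe set of LOC543856 gave an additional reading of the gene. It read 5.19 and 5.16 in water at 6 h, 5.60 and 5.49 under NPA at 6 h, 4.59 and 4.25 in water at 12 h, and 4.59 and 4.23 under NPA at 12 h. NPA arrays were again the highest at 6 h, by 0.41 and 0.33 in the repeats, and the 12 h arrays the lowest. NPA against water at 6 h was 0.37 (SE 0.17, limma adjusted p = 0.376), against 0.545 on the probe set used. The gene fell from 6 h to 12 h on this probe set too, with a change of -0.755 in water (SE 0.17, limma adjusted p = 0.0263) and of -1.135 under NPA (SE 0.17, adjusted p = 0.00753). Over the 8 arrays the 2 probe sets correlated at 0.93, and both are read from the same RNA. No other WRKY gene had a second probe set among those with a symbol. Probe sets without a symbol could not be searched.

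Ordered by group mean, the genes took different courses. WRKYIId-4 stood at 7.465 ± 0.318 (SD, n = 2) in water at 6 h, 8.115 ± 0.205 under NPA at 6 h, 8.595 ± 0.12 in water at 12 h and 8.62 ± 0.099 under NPA at 12 h. The 12 h groups did not differ beyond their spread. LOC543856 ran the other way, with its top under NPA at 6 h (8.12 ± 0.0707), then water at 6 h (7.575 ± 0.205), NPA at 12 h (7.065 ± 0.0212) and water at 12 h (7.015 ± 0.0354). LOC543855 was highest under NPA at 6 h (6.21 ± 0.184), and its other groups had means between 5.635 and 5.79. Among these, both NPA arrays of 12 h lay above both water arrays of 12 h, by 0.01 at the closest.

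WRKY2 had the widest range over the 8 arrays, 1.99, and WRKYIId the narrowest, 0.42. Correlations between members over the 8 arrays, which fall into 4 groups and so share group differences, ran from -0.80 for LOC543856 with WRKY2 to 0.90 for WRKYIId-4 with WRKY2. LOC543855 and LOC543856 correlated at 0.66, and LOC543855 and WRKYIId-4, both of group IId, at 0.10.

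For 3 of the genes the named genes with the most similar course were looked up, by Pearson's correlation of log2 values over the 8 arrays among 682 named genes outside the family. WRKYIId-4 was most like ACT (r = 0.97), LTC (0.95) and PTI4 (0.95), an ERF transcription factor that interacts with the Pto kinase. PTI4 read 10.36 and 10.53 in water and 11.38 and 11.14 under NPA at 6 h, and between 11.40 and 11.59 on the 12 h arrays. In both genes the water 6 h arrays read lowest. In WRKYIId-4 they came close to the NPA arrays of 6 h, with 7.69 in water and 7.97 under NPA in repeat 2.

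LOC543855 was most like ArcA1 (0.97), MPK3 (0.93), a MAP kinase of the defence cascade, and AOS (0.91), allene oxide synthase of jasmonate synthesis. MPK3 read 8.64 and 8.79 in water and 9.50 and 9.14 under NPA at 6 h, with 12 h arrays from 8.45 to 9.03. Its probe set is of a kind that can take up more than 1 transcript.

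LOC543856 was most like CDPK1 (0.98), a calcium-dependent protein kinase, AOC (0.97), allene oxide cyclase of jasmonate synthesis, and SPM1 (0.97). AOC read 10.76 and 10.90 in water, 11.70 and 11.90 under NPA at 6 h, and between 8.86 and 9.34 at 12 h. CDPK1 ran from 10.50 to 11.13, also with its 4 arrays of 12 h below those of 6 h. These correlations describe 8 arrays in 4 groups and carry no test.

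**Figure D4:**
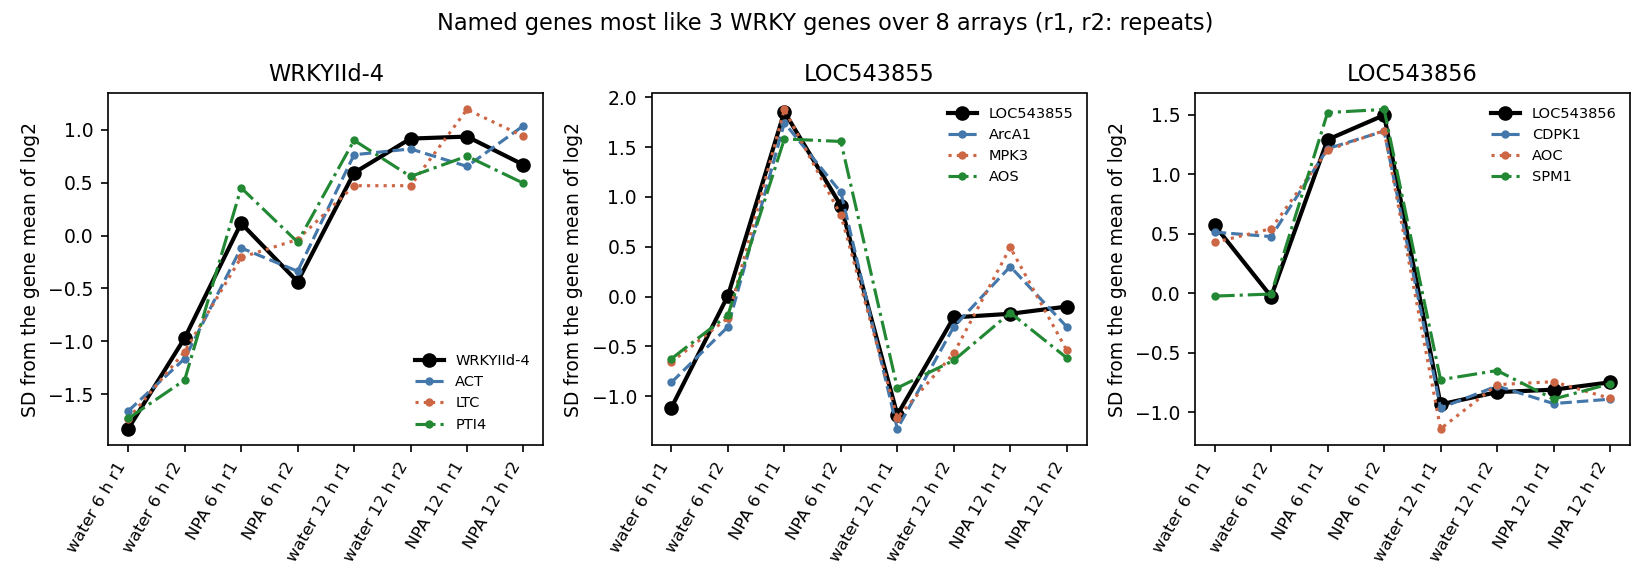
Course of WRKYIId-4, LOC543855 and LOC543856 (black) and of the 3 named genes most like each over the 8 arrays (horizontal axis, 2 repeats per group), as SDs of the log2 values from the gene's own mean (vertical axis). WRKYIId-4 and its likes are lowest in water at 6 h, LOC543855 and its likes are highest under NPA at 6 h, and LOC543856 and its likes are low on all 4 arrays of 12 h.

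Genes that act around WRKY factors were followed in lists set by name. The first held 10 genes, for MAP kinases and calcium-dependent kinases, which act upstream, and for NADPH oxidases. At 6 h 0 of 10 passed in limma and 4 had an unadjusted p under 0.05, with 8 above water on average and a median of 0.3175. Over all probe sets these shares were 15.7% and 48.2%. MKK4, a MAP kinase kinase, stood at 0.775 (0.85 and 0.70 in the repeats, limma adjusted p = 0.185), MPK3 at 0.605 (0.206) and MKK2 at 0.465 (0.245). At 12 h the median was 0.10 and 0 of 10 passed, with 1 at an unadjusted p under 0.05, beside 9.65% of all probe sets. From 6 h to 12 h in water 1 of 10 rose, MKK4 by 1.025 (limma adjusted p = 0.0234), and 1 fell, CDPK1 (-0.37, 0.0467), beside 11.7% and 10.5% of all probe sets. Under NPA 0 of 10 rose and 3 fell, beside 14.2% and 11.8%. These were MKK2 (-0.85, limma adjusted p = 0.0136), CDPK1 (-0.595, 0.0103) and MPK2 (-0.455, 0.0486), a MAP kinase.

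Only 2 genes each were found for pathogen recognition and for salicylic acid signalling. Ve2, of the Verticillium resistance locus, stood at 0.85 at 6 h (1.21 and 0.49, limma adjusted p = 0.149) and 0.195 at 12 h. PTI1, a kinase phosphorylated by Pto, stood at -0.14 and -0.165. NPR1, a salicylic acid receptor, stood at 0.35 at 6 h and 0.595 at 12 h (limma adjusted p = 0.368 and 0.46). GPA1 entered that list through its synonym TGA1 and is a G protein subunit; it stood at 0.015 and 0.36.

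Other stress transcription factors, 19 genes of the ERF, DREB, bZIP, NAC and MYB families, had a median of 0.195 at 6 h and -0.04 at 12 h. At 6 h 0 of 19 passed in limma, 5 had an unadjusted p under 0.05 and 11 were above water on average, beside 15.7% and 48.2% of all probe sets. PTI4 at 0.815 (limma adjusted p = 0.118), PTI6 at 1.615 (0.122) and PTI5 at 3.98 (0.137) had the smallest p. With the repeat as a block PTI5 passed as higher, at a limma adjusted p of 0.0494, as did 81 of all 8404 probe sets. It was the one gene of the list to do so at 6 h. From 6 h to 12 h in water 2 of 19 rose, PTI4 by 1.065 and JERF1 by 0.865, and none fell, beside 11.7% and 10.5% of all probe sets. With the repeat as a block 6 rose and 1 fell, DREB1 (-1.09, limma adjusted p = 0.0155). Calls were also more frequent across the array in that fit, where 1697 of all 8404 probe sets rose and 1447 fell. The 4 further genes of the list that rose were EREB, DREB3, ERF4 and LOC606712. In this water comparison PTI4 and WRKYIId-4 rose by similar amounts, 1.065 and 1.13.

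Pathogenesis-related genes, whose promoters are classical WRKY targets, were measured by 12 genes. Their median was 2.79 at 6 h and 2.53 at 12 h, with 11 of 12 above water on average at each time, and in limma 0 of 12 passed at either, with 9 and 8 at an unadjusted p under 0.05. Over all probe sets 48.2% and 44.5% were higher on average, and 15.7% and 9.65% had such a p. At 6 h repeat 1 gave a median of 3.97 and repeat 2 one of 1.305. CHI14, a chitinase, stood at 3.25 at 6 h and 2.55 at 12 h, P69B, a subtilase, at 2.78 and 2.51, and CHI17 at -0.81 and -0.31. Set beside them, the WRKY medians of 0.435 and 0.01 were small at both times. Repeat 1 had the larger median in both lists at 6 h, while LOC543856 and WRKYIId had the larger difference in repeat 2.

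**Figure D5:**
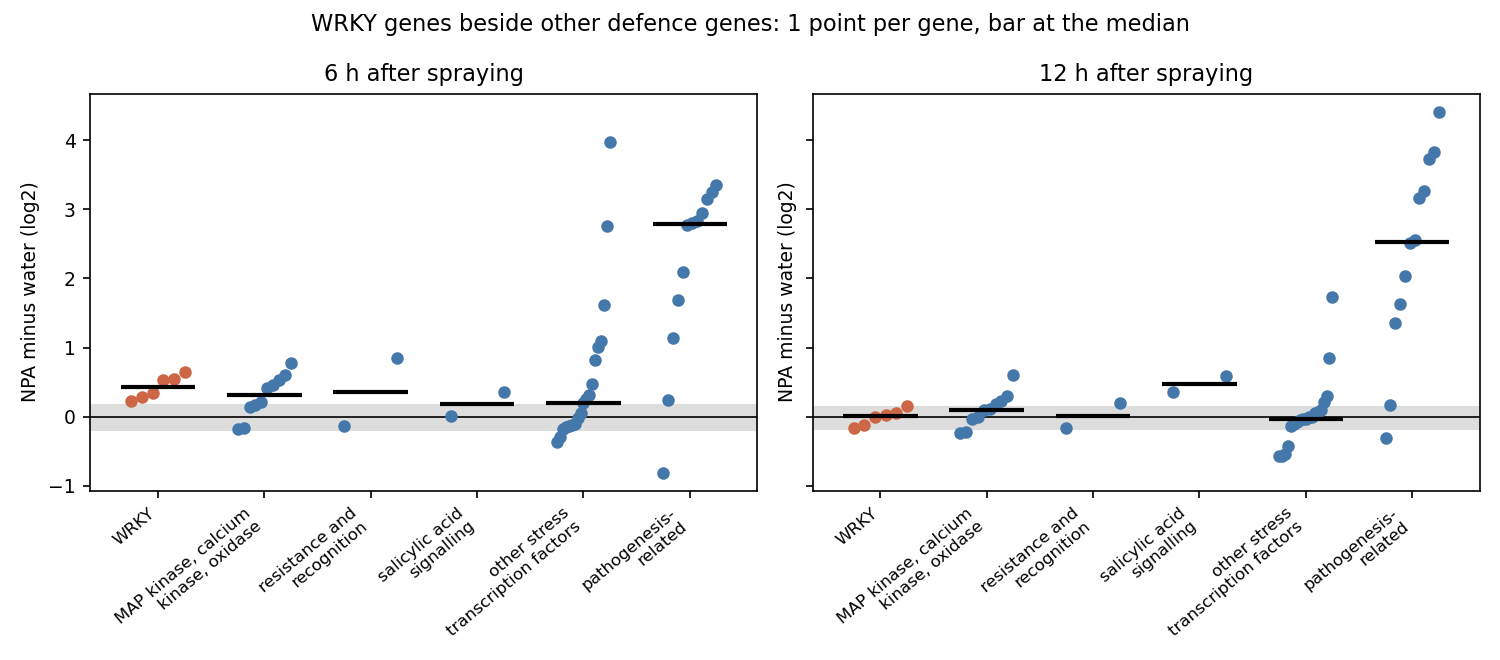
NPA minus water on the log2 scale (vertical axis) at 6 h (left) and 12 h (right) for each WRKY gene and each gene of 5 lists set by name; points are genes, bars list medians, and the grey band spans the quartiles of all 8404 probe sets. WRKY genes sit just above the band at 6 h (median 0.435) and within or beside it at 12 h (0.01), while the pathogenesis-related medians are 2.79 and 2.53.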

How the data were processed

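The deposited table holds 1 log2 value per probe set and array, made with RMA per the submitters' processing notes. The labels state no version or settings of RMA. The log2 scale was taken from RMA and from the range of the values, 2.68 to 14.6. Of 8488 rows, 84 controls were left out and 8404 probe sets tested. Platform annotation gave 753 of them 1 symbol and 7651 none, and 739 of the 753 matched the RefSeq genes of SLM_r2.1 by gene identifier, which supplied synonyms.

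The R 4.3.3 package limma 3.58.1 fitted the group means over all 8 arrays, with eBayes after lmFit (4 residual and 2.55 prior degrees of freedom), and p-values were adjusted by Benjamini-Hochberg over all probe sets, with a threshold of 0.05. The number of arrays limits the precision. This fit left out the repeat, so its SEs, intervals and p-values hold shifts between repeats as well as the spread between pools. Repeats pair the arrays, since the set of experiments was repeated as a whole, per the labels' design text. Same-numbered arrays deviated together (r from 0.316 to 0.596 over 6 pairs of groups). Values are from the fit without the block, as the labels state no paired test. With the block, the limma adjusted p for NPA against water at 6 h was 0.079 for LOC543856. It was 0.116 for WRKYIId-4, 0.121 for LOC543855 and higher for the other members.

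Members and lists were chosen with earlier results of these data known. All members are named, as are up to 3 genes of each list with the smallest p at 6 h and the 3 named genes most like WRKYIId-4, LOC543855 and LOC543856. JERF1, MPK2, EREB, DREB1, DREB3, ERF4 and LOC606712 were named after their values were seen. The limma fit was tested on simulated data, in which the spread was drawn separately for each array, without shifts shared within a repeat. Python 3.11.15 and matplotlib 3.10.9 drew the figures.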

Additional observations from a re-analysis of the deposited data

Results flagged for a closer look

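WRKYIId stood above water in both repeats at 6 h (0.19 and 0.39) and below it in both at 12 h (-0.19 and -0.06). The change of -0.415 did not pass in limma (adjusted p = 0.434), and 12.4% of all probe sets showed this pattern. The same gene was higher at 12 h in both repeats in water (0.23 and 0.32) and lower in both under NPA (-0.15 and -0.13), which is the same change of -0.415, and 5.25% of all probe sets did so.

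WRKY2 stood above water in both repeats at 6 h (0.51 and 0.16) and below it in both at 12 h (-0.17 and -0.15). Its change of -0.495 did not pass in limma either (adjusted p = 0.606). With 2 arrays in each group no array was tested for standing apart from its group.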

How the results depend on the processing

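No setting tried made a WRKY gene pass for NPA against water, and the repeat as a block changed no WRKY call. Of the 36 gene results under 510 alternatives, 10 alternatives lost a call, as given beside LOC543856, WRKYIId-4 and WRKY2, and 21 turned a direction, all of values that were not called. By quantile normalization these were WRKYIId-1 at 12 h (0.0166), LOC543855 over time in water (0.0147) and WRKYIId-1 over time in NPA (0.0234), and the other probe set of LOC543856 gave -0.01 at 12 h. Without 1 array, NPA against water ranged from -0.025 to 0.695 for WRKY2 at 6 h, -0.06 to 0.11 for WRKYIId-4 at 12 h and -0.27 to 0.25 for WRKYIId-1 at 12 h. The average over times ranged from -0.0925 to 0.2675 for WRKY2 and -0.025 to 0.235 for WRKYIId-1. The change of the NPA difference ranged from -0.49 to 0.03 for WRKYIId-1. Over time in water the range was -0.195 to 0.115 for LOC543855 and -0.025 to 0.475 for WRKYIId-1, and in NPA -0.265 to 0.255 for WRKYIId-1.

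Counts over all probe sets moved more. They were 14 at 6 h, 1 at 12 h, 0 for the change of the NPA difference, 1867 over time in water, 2183 over time in NPA and 6 for the average. The repeat as a block gave 108, 0, 0, 3144, 3401 and 80. Only the probe sets above the median level gave 5, 0, 1, 1157 and 1281 for the first 5, with fewer tested and 2 of the 6 WRKY genes among them. An intensity trend gave 9 at 6 h, 2 at 12 h and 1 for the change, for which quantile normalization gave 2. Only the arrays compared gave 2 at 6 h, 0 at 12 h and 1058 over time in NPA. Without 1 array the ranges were 0 to 22, 0 to 3, 0 to 1, 356 to 1740, 925 to 1892 and 0 to 49. The cause was not tested, and in some of these settings fewer arrays or probe sets entered. With 2 pools a group, WRKY differences of 0.535 to 0.65 at 6 h were not called.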
